A study of Mus musculus with 8 samples.

Results

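The genes described here encode the subunits, regulators and assembly helpers of the proteasome. They are the genes whose symbol is Psma, Psmb, Psmc, Psmd, Psme, Psmf or Psmg followed by a number. There were 48 of them among the 26608 genes listed in the files. The core set held 19 genes (8 Psma and 11 Psmb), the regulatory ATPase set 6 (Psmc), the regulatory set 14 (Psmd), and the set of activators, inhibitor and assembly chaperones 9 (4 Psme, 1 Psmf and 4 Psmg).

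The proteasome is the barrel-shaped protease that destroys proteins tagged with ubiquitin. Psma and Psmb proteins form the stacked rings of its core, with the cutting sites in Psmb5, Psmb6 and Psmb7. Psmc proteins form a ring of ATPases that unfolds substrates and threads them into the core. Some Psmd proteins recognise or trim ubiquitin chains, and Psme proteins are alternative caps. Mice without working proteasome subunits generally die early in development, and dividing embryonic cells depend on the complex for cell cycle progress.

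RNA was measured in neural tube from FVB mouse embryos at day 8.5 of gestation, taken by laser microdissection just behind closure site 1, where the tube had closed, or just in front of it, where it was open. The 4 groups were closed neural tube of embryos from diabetic dams (libraries 15 and 16), closed tube from normal dams (libraries 11 and 12), open tube from diabetic dams (libraries 13 and 14) and open tube from normal dams (libraries 9 and 10). How diabetes arose in the dams, and the number of embryos or litters behind each library, are not stated in the labels. The libraries were SOLiD SAGE libraries, which read a short tag next to the last CATG site of each transcript, so a count does not scale with transcript length.

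Library totals ran from 5041586 to 16655583 counts, and the proteasome genes took 1.07% to 1.32% of them. Neural markers were detected for 8 of 8 listed genes, in counts scaled to a library total of 1000000 (CPM). Lin28a, which many early embryonic cells express, made up most of their sum with 1566 to 2424 CPM, and Msi1 was at 0 in 5 libraries. Diabetic open library 13 stood apart: the other 7 neural markers summed to 104 CPM there, against 636 to 1030.3 CPM elsewhere. Sox2, a neural progenitor factor, was at 30.9 CPM there, against 287 to 549.8 CPM elsewhere, and Gata4, a heart and endoderm factor, at 87.7 CPM, against at most 4.36 CPM elsewhere. Blood markers summed to 922 and 1009 CPM in the diabetic open libraries and to at most 209 CPM in the others; almost all of this was Hba-x, an embryonic globin, while Hbb-y was at 0 in every library. Normal libraries 10 and 12 held Xist, the RNA of the inactive X chromosome, at 301 and 297 CPM, against at most 4.27 CPM in the other libraries, and Ddx3y, a Y-linked gene, at 0.882 and 0.444 CPM, against 188 to 274 CPM. Libraries with this pattern of female embryos thus occurred among normal dams only, 1 per region.

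A SAGE count stands or falls with its tag, so predicted tags of 7 members that the results turn on are given here. They were read from the principal coding transcripts of GENCODE M21 as the last CATG site and the bases after it, 27 bases in all, 5′ to 3′ on the gene's strand. Capitals mark the CATG anchor that the enzyme NlaIII cuts.
Psmb5: CATGgctataataaataatagtacctc
Psmb6: CATGgaacgcgacggctccagtggagg
Psmb10: CATGgaggtggaatgaagtggcctgag
Psma2: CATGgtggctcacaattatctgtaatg
Psmd13: CATGgagatgctggtggaacaccaggc
Psmf1: CATGgagttggggttgacttctgggct
Psmg3: CATGgagaggctcaaggcattgaagga

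Psmf1 lies on chromosome 2, Psmb5 on chromosome 14, Psmb6 on chromosome 11, Psmb10 on chromosome 8, Psma2 on chromosome 13, Psmd13 on chromosome 7 and Psmg3 on chromosome 5. The tag began 32 bases from the transcript end in Psmb5 and 200 in Psmb6. A full tag of this kind was found for 44 of the 48 genes. In 37 of these the tag occurred at no CATG site of any other gene in the annotation, which was the case for Psmb5, Psmb6, Psmb7, Psmb10, Psmf1 and Psmg3. In 7 it also occurred in another gene: the Psma2 tag in Snhg15, the Psma5 tag in the pseudogene Gm8394, the Psmb3 tag in AC114990.1 and Gm4950, the Psmd13 tag in Gm7419, the Psmd14 tag in Gm12096, the Psme1 tag in Gm7776 and the Psme2 tag in Psme2b. Psmb8, Psmc1, Psmd1 and Psmd12 had their last CATG too close to the transcript end for a full tag, yet Psmc1 averaged 159 CPM. How tags matching several genes were assigned is not given in the sources used here, so the counts of the genes with shared tags are uncertain.

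The proteasome genes spanned a wide range of tag levels, from over 1000 CPM to no tag. Psma4, an alpha ring subunit, averaged 1695 CPM over the 8 libraries, Psma5, of the same ring, 1256 CPM, and Psmb1, a beta ring subunit, 1170.2 CPM. These 3 genes gave 29.5% to 35.9% of all proteasome tags in a library. In the ATPase ring, Psmc5 was highest with 714 CPM and Psmc3 followed with 414 CPM. In the regulatory set, Psmd6 averaged 586 CPM and Psmd11 352 CPM, while Psmd10, a chaperone of the ATPase ring, was lowest with 23.5 CPM. In the activator set Psme3, the nuclear cap subunit PA28gamma, averaged 266 CPM and Psme4, the PA200 cap, 188 CPM.

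**Figure D1:**
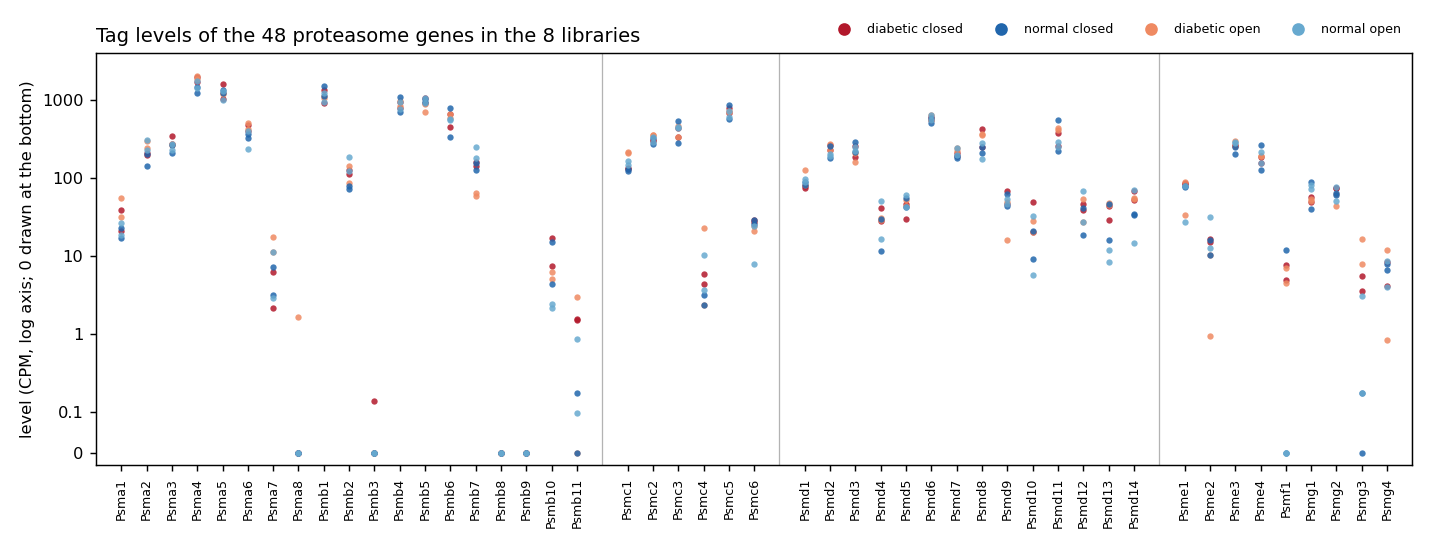
Level of each of the 48 proteasome genes (CPM, log axis with 0 at the bottom) in the 8 libraries, coloured by group, with the 4 sets parted by grey lines. Psma4, Psma5 and Psmb1 lay highest, Psmb8 and Psmb9 were at 0 throughout, and Psmb7 had its lowest levels in both diabetic open libraries.

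Several genes for obligatory subunits had almost no tags. Psmb3, a beta ring subunit, had 1 count in all libraries together. Psma7, an alpha ring subunit, averaged 7.82 CPM and ranged from 2.18 to 17.7 CPM. Psmc4, 1 of the 6 ATPases, averaged 6.90 CPM, with 22.8 CPM in diabetic open library 13 and 2.37 to 10.4 CPM in the others. Within the ATPase ring, whose subunits assemble in equal numbers, mean tag levels thus ran from 6.90 CPM for Psmc4 to 714 CPM for Psmc5. A tag level therefore ranks genes by recovered tags, and it was not tested how far it follows transcript number.

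Genes of tissue-restricted forms of the core were at or near 0. Psmb8 and Psmb9, the interferon-induced catalytic subunits of the immunoproteasome, had 0 of 65405280 counts over all libraries together. For counting error only, this allows a tag level of up to 0.0459 CPM, although Psmb8 also lacked a full predicted tag. The bound is one on tags and not on transcripts, as the obligatory Psmb3 had 1 count. Psmb10, the partner of Psmb8 and Psmb9, averaged 7.55 CPM. Psmb11, the catalytic subunit of the thymus cortex, averaged 0.910 CPM and was at 0 in diabetic open library 14 and normal closed library 12. Psma8, the testis form of an alpha subunit, had 28 counts in diabetic open library 13 (1.68 CPM) and none in the other libraries.

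The most even genes over the 8 libraries were spread over the sets. The coefficient of variation was 8.15% for Psmd6, 10.1% for Psmc2, 10.8% for Psme3, 11.2% for Psmd7 and 12.7% for Psmb5. Among members with a mean of at least 10 counts it was largest for Psmg3 (121%), Psmc4 (100.4%), Psmf1 (96.8%), Psmb10 (74.6%) and Psma7 (68.8%). All of these averaged under 10 CPM. The median coefficient was 26.2% over the 44 proteasome genes tested and 52.8% over all 11779 genes tested. Among genes averaging at least 100 CPM it was 17.9% for 23 proteasome genes and 21.3% for 1816 genes, so the gap was smaller among abundant genes.

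The sets kept nearly the same proportions in every library. The core gave 61.3% to 65.3% of proteasome tags, the ATPase set 12.4% to 14.1%, the regulatory set 16.6% to 20.02% and the activator set 5.08% to 6.10%. The summed level of all 48 genes was 12116 and 13170.5 CPM in diabetic closed libraries, 10720.0 and 13093 CPM in normal closed libraries, 13031 and 12435 CPM in diabetic open libraries, and 12494 and 11449.6 CPM in normal open libraries. The groups overlapped, and normal closed library 11 was the lowest in the core, ATPase, regulatory and activator sums alike. After TMM scaling, which weights libraries by the bulk of their genes, the lowest core sum was in normal open library 10. It was 6765 CPM there, against 7009.5 CPM in library 11, which stayed lowest in the ATPase, regulatory and activator sums.

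**Figure D2:**
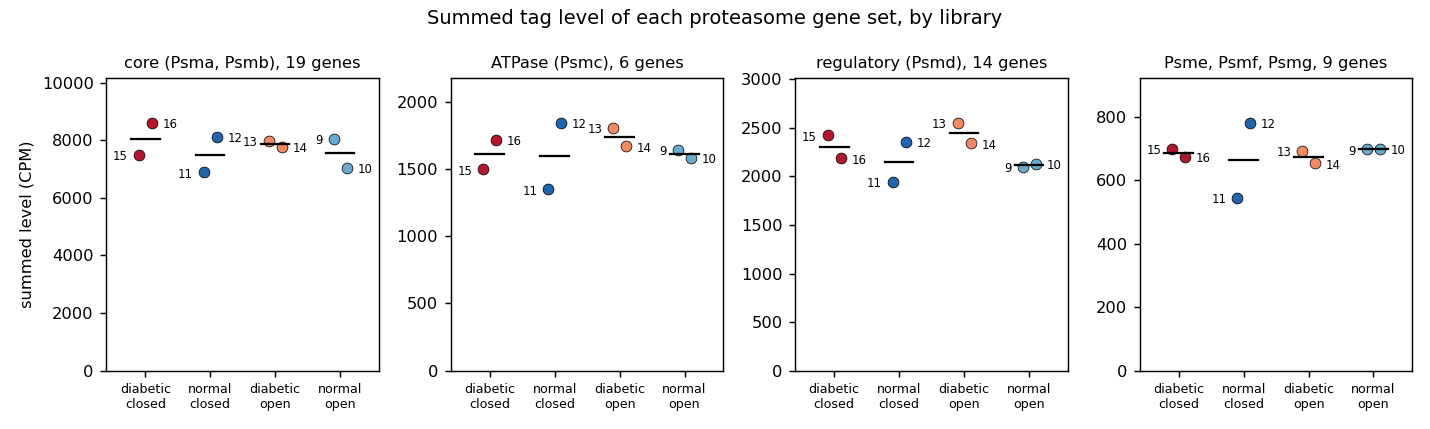
Summed level of the 4 sets (CPM, axes from 0) in the 8 libraries, with a bar at the mean of the 2 libraries of a group and the library number beside each point. The core lay between 6880.5 and 8595 CPM in all libraries, with the groups overlapping.

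The first question was whether the diabetes of the dam went with a change in proteasome transcripts. Summed core tags averaged 7962 ± 467 CPM in libraries from diabetic dams and 7522 ± 655 CPM in libraries from normal dams (SD, n = 4 each). The ATPase sum was 1672 ± 130 against 1605 ± 203 CPM, the regulatory sum 2376 ± 153 against 2134 ± 168 CPM, and the activator sum 679 ± 20.6 against 679.7 ± 98.2 CPM, diabetic against normal dams (SD, n = 4 each). Without Psma4, Psma5 and Psmb1, its most abundant genes, the core sum was 3654 ± 156 CPM for diabetic against 3587 ± 329 CPM for normal dams (SD, n = 4 each). The difference in the core sum thus lay mostly in the summed tags of those abundant genes, which did not all differ alike. Their edgeR log2 fold changes for diabetic over normal dams were 0.35 (SE 0.16) for Psma4, 0.03 (SE 0.18) for Psma5 and -0.14 (SE 0.19) for Psmb1. As single libraries were left out, the core difference of 440 CPM was lowest, at 226.7 CPM, without normal closed library 11. The ATPase difference of 67.4 CPM was -17.7 CPM without the same library, 146 CPM without normal closed library 12 and 176 CPM without the 2 libraries with Xist. The libraries of diabetic and normal dams overlapped in each set, and only the regulatory difference, 242 CPM, was larger than the SD of both. In bulk tissue such as this, fewer cells of a type and less RNA per cell cannot be told apart.

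No proteasome gene passed the threshold for dam over both regions (edgeR quasi-likelihood test with dam and region in the model, Benjamini-Hochberg adjusted p below 0.05). The count was 0 of 44, with 0% of all 11779 genes called. DESeq2 called none of the 44 and 0.314% of all genes, and limma-voom called 0 of either. At an unadjusted edgeR p below 0.05, 3 of the 44 were higher and 1 lower, beside 2.97% higher and 1.58% lower among all genes. A positive fold change was found in 30 of the 44 (68.2%) and in 52.7% of all genes, with a median log2 fold change of 0.10 for the proteasome genes and 0.04 for all genes.

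In the core the signs were counted by family. All 7 tested Psma genes, of the outer rings, had a positive log2 fold change for diabetic over normal dams, between 0.03 (Psma5) and 0.75 (Psma1). The signs of Psma2, Psma5 and Psma7 turned when 1 library was left out, to -0.01 without normal closed library 12, -0.09 without diabetic closed library 16 and -0.05 without normal open library 9, and within closed tissue Psma7 was at -0.35. Of the 8 tested Psmb genes, of the inner rings, 4 were positive. The summed Psma level was 4120.1, 4276, 4362 and 4141 CPM in libraries 15, 16, 13 and 14 from diabetic dams, and 3436, 3469.7, 4047 and 3238 CPM in libraries 11, 12, 9 and 10 from normal dams. Every diabetic library was above every normal one on this scale. After TMM scaling, which weights libraries by the bulk of their genes, the ranges met: 4069.6 to 4281 CPM for diabetic and 3114 to 4116 CPM for normal dams. The gap in the Psma sum was not spread evenly over the genes. Most of it lay in Psma4, which averaged 1695 of the 3886 CPM of that sum over all libraries. The summed Psmb level differed the other way, at 3737 ± 406 CPM in diabetic and 3974 ± 505 CPM in normal libraries (SD, n = 4 each), with overlap.

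Psma4 was at 1989 and 1736 CPM in diabetic closed, 1256 and 1457 CPM in normal closed, 2068 and 1848 CPM in diabetic open and 1788 and 1419 CPM in normal open libraries, so that 1 normal library (9) lay inside the diabetic range. Its log2 fold change for diabetic over normal dams was 0.35 (SE 0.16, edgeR adjusted p = 0.999). Psma6, another alpha ring subunit, had a log2 fold change of 0.42 (SE 0.21, edgeR adjusted p = 0.999), with 407 to 515 CPM in diabetic and 241 to 409 CPM in normal libraries.

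**Figure D3:**
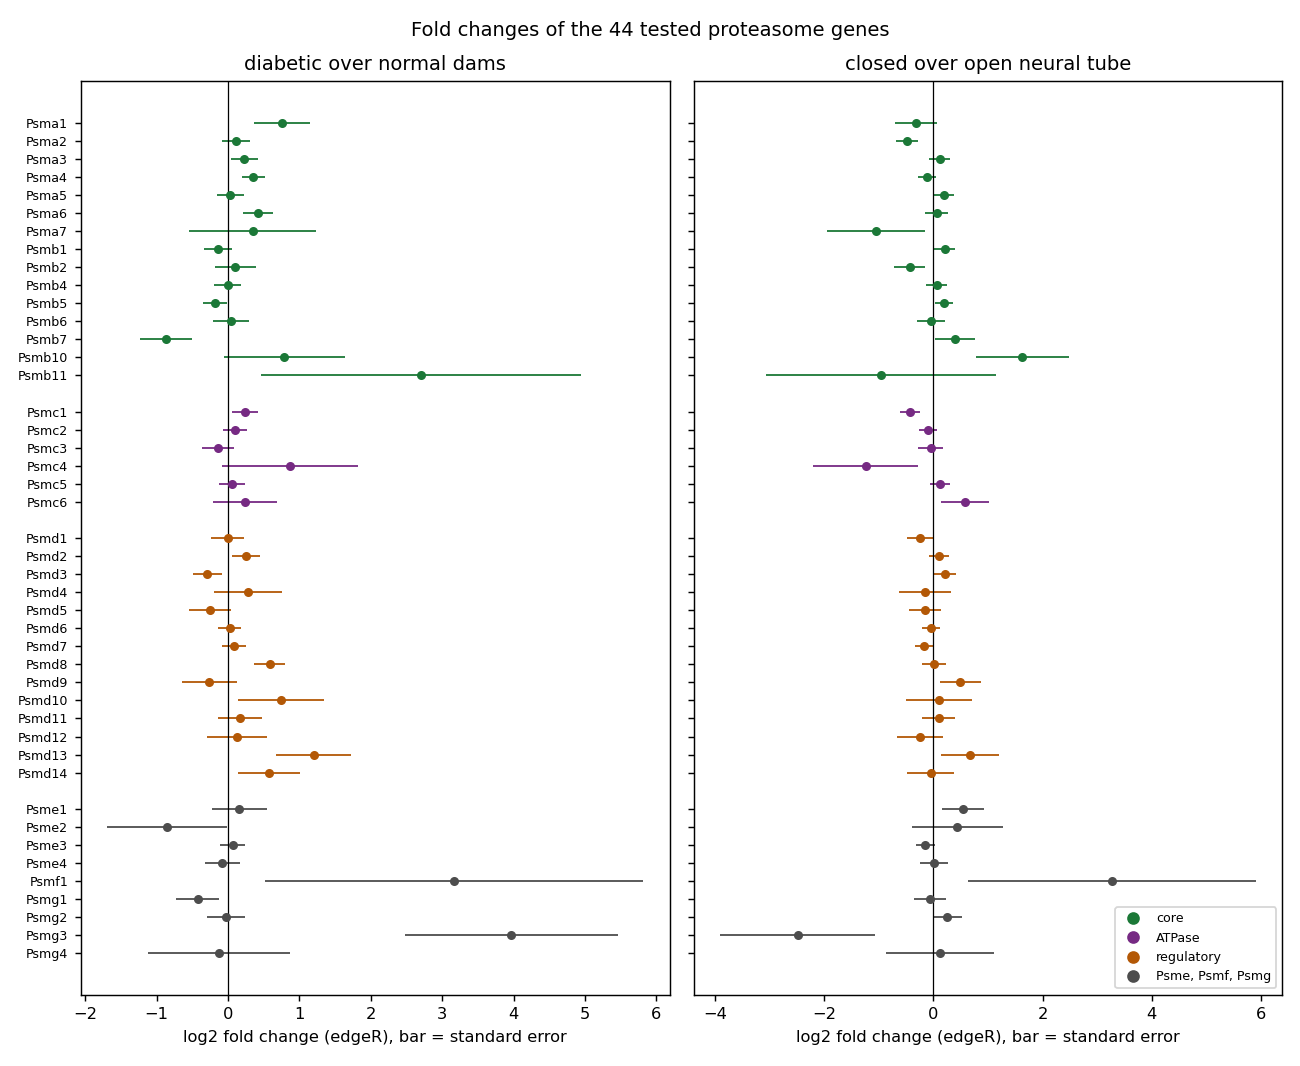
Log2 fold change of the 44 tested proteasome genes for diabetic over normal dams (left) and closed over open neural tube (right), from edgeR on all 8 libraries, with bars of 1 standard error and colours for the sets. The 7 tested Psma genes all lay right of 0 for dam, while wide bars mark genes with few tags such as Psmf1, Psmg3 and Psmb11.

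The Psmd gene with the largest fold change for dam was Psmd13, a lid subunit. It was at 29.6 and 44.7 CPM in diabetic closed, 16.03 and 46.5 CPM in normal closed, 45.8 and 48.1 CPM in diabetic open and 8.39 and 12.2 CPM in normal open libraries. The 2 normal open libraries were the lowest of all, and the closed groups overlapped. The log2 fold change for dam was 1.20 (SE 0.53, edgeR adjusted p = 0.999). In open tissue alone it was 2.19 (SE 0.63, edgeR adjusted p = 0.598, DESeq2 adjusted p = 0.0742), so it passed in neither tool, and its tag is shared with Gm7419. Psmd8, also of the lid, had the smallest p of the set. It was at 423 and 255 CPM in diabetic closed, 253 and 214 CPM in normal closed, 367 and 358 CPM in diabetic open and 178 and 282 CPM in normal open libraries, with diabetic library 16 inside the normal range, and a log2 fold change of 0.59 (SE 0.22, edgeR adjusted p = 0.999).

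Among the chaperones that assemble the core, Psmg3 was the only proteasome gene whose diabetic and normal libraries did not overlap over both regions, beside 2.48% of all genes that were higher without overlap; 0 proteasome genes were lower without overlap, beside 1.15% of all genes. It was at 5.55 and 3.63 CPM in diabetic closed, 0.178 and 0 CPM in normal closed, 7.93 and 16.7 CPM in diabetic open and 3.06 and 0.176 CPM in normal open libraries. Behind these levels stood 26 to 140 counts in diabetic libraries and 0, 1, 1 and 31 counts in normal libraries. The log2 fold change was 3.97 (SE 1.49, edgeR adjusted p = 0.999, DESeq2 adjusted p = 0.195). It was 5.73 without normal open library 9, the 1 normal library with more than 1 count, 3.39 without normal closed library 12, and 2.89 without the 2 libraries with Xist. The other chaperones Psmg1, Psmg2 and Psmg4 had log2 fold changes of -0.43, -0.03 and -0.13 for dam.

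Psmf1, the inhibitor PI31, was at 4.96 and 7.67 CPM in diabetic closed, 12.1 and 0 CPM in normal closed, 4.56 and 7.04 CPM in diabetic open and 0 and 0 CPM in normal open libraries. All 4 diabetic libraries held it, with 25 to 76 counts, against 1 of 4 normal libraries. In open tissue it was at least 28.4-fold higher in embryos of diabetic than of normal dams, taking 3 counts over the 2 normal libraries as the floor, which covers counting error only (edgeR adjusted p = 0.651). In closed tissue normal library 11, with 68 counts, had more of it than either diabetic library, while its partner library 12 had none. Other genes had such a pattern too. Of genes with at least 50 counts in 1 library of a pair, the share at 0 in the other was 3.23% and 11.9% in the diabetic open pair, 3.12% and 6.44% in the normal open pair, 1.16% and 1.22% in the normal closed pair and at most 0.129% in the diabetic closed pair. The floor does not allow for them, so the fold describes these libraries. Among the caps, Psme1, Psme3 and Psme4 had log2 fold changes of 0.15, 0.06 and -0.08, and Psme2, whose tag is shared with Psme2b, -0.85 (SE 0.84, edgeR adjusted p = 0.999).

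The catalytic subunit gene Psmb7, which carries the trypsin-like site, had the smallest p of the 44 proteasome genes in open tissue. It was at 163 and 143 CPM in diabetic closed, 127 and 157 CPM in normal closed, 59.0 and 64.8 CPM in diabetic open and 180.4 and 254 CPM in normal open libraries. The diabetic open libraries were the lowest of the 8 and the normal open ones the highest, while the closed groups overlapped. The counts behind these levels ran from 543 to 1827.

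In open tissue the log2 fold change of Psmb7 for diabetic over normal dams was -1.82 (SE 0.31). Its rank by p was 5 of 11779 genes, and it did not pass after adjustment (edgeR adjusted p = 0.273), while DESeq2 called it (adjusted p = 0.000229), as it called 1.69% of all genes. It was the only proteasome gene that either tool called in any of the 7 comparisons. The edgeR adjusted p ran from 0.0186 to 0.348 as single libraries were left out, and was below 0.05 without normal open library 9 and without diabetic closed library 15 or 16. Without the 2 libraries with Xist, both of normal dams, the log2 fold change was -1.61 (edgeR adjusted p = 0.507). In closed tissue the log2 fold change was 0.08 (SE 0.30, edgeR adjusted p = 1.00).

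The difference between those 2 dam effects, the interaction of dam and region, was 1.90 for Psmb7 on the log2 scale (SE 0.43, edgeR adjusted p = 1.00, DESeq2 adjusted p = 0.0623). Closed against open tissue gave 1.34 within diabetic dams (SE 0.30, edgeR adjusted p = 0.845, DESeq2 adjusted p = 0.0489) and -0.56 within normal dams (SE 0.30, edgeR adjusted p = 1.00). DESeq2 called 0.399% of all genes in that diabetic comparison. The blood markers named above were highest in the diabetic open libraries, where Psmb7 was lowest, and so were endothelial markers, with sums of 306 and 134 CPM there and 26.1 to 86.5 CPM in the other libraries. Tcfap2a, a surface ectoderm and neural crest factor, was at 0.18 and 0 CPM there, against 6.88 to 41.0 CPM in the other libraries (log2 fold change -6.36 for dam in open tissue, DESeq2 adjusted p = 0.000296), while the sum of the 6 surface markers was 324 and 52.9 CPM there, against 67.9 to 279 CPM. Pdgfra, a mesoderm receptor, was at 475 and 66.02 CPM there, against 29.9 and 32.3 CPM in normal open libraries (log2 fold change 3.11, DESeq2 adjusted p = 0.000901), and the 7 paraxial mesoderm markers summed to 1107 and 150.5 CPM there, against 129 to 742 CPM in the other libraries. The part of these markers in the result was not tested. Of the 6 listed blood markers 5 had a count, with Hba-x in every library, and of the 6 endothelial markers 6 had a count, with Egfl7 in every library and Kdr at most 0.178 CPM. All surface and paraxial markers had a count, 3 of 6 and 5 of 7 in every library. Psmb7 was low in library 13, which stood apart in Sox2, and in library 14. Both libraries held the high blood and endothelial sums and the low Tcfap2a.

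Of the other standard catalytic subunits, Psmb5 was also lowest in the diabetic open libraries, by a smaller fold, and Psmb6 was not. Psmb5, of the chymotrypsin-like site, was at 918 and 1069 CPM in diabetic closed, 1036 and 962 CPM in normal closed, 706 and 898 CPM in diabetic open and 930.0 and 1080.3 CPM in normal open libraries. Its log2 fold change in open tissue was -0.33 (SE 0.24, edgeR adjusted p = 0.724). Psmb6, of the caspase-like site, was at 448 and 657 CPM in diabetic closed, 334 and 795 CPM in normal closed, 666 and 585 CPM in diabetic open and 575 and 552 CPM in normal open libraries. Its log2 fold change in open tissue was 0.14 (SE 0.38, edgeR adjusted p = 0.980). Whether the fold of Psmb7 differed from those of Psmb5 and Psmb6 was not tested.

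Since these 3 subunits are built into the same ring, their tags can be read as shares within a library, which no scaling between libraries touches. Psmb7 gave 10.7% and 7.64% of the tags of the 3 genes in diabetic closed, 8.51% and 8.22% in normal closed, 4.12% and 4.19% in diabetic open and 10.7% and 13.5% in normal open libraries. The Wilson 95% interval was 3.88% to 4.38% and 3.86% to 4.55% in the diabetic open libraries, and 10.2% to 11.2% and 12.8% to 14.1% in the normal open libraries, for counting error only. The shares in diabetic open tissue lay below those of the 6 other libraries.

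**Figure D4:**
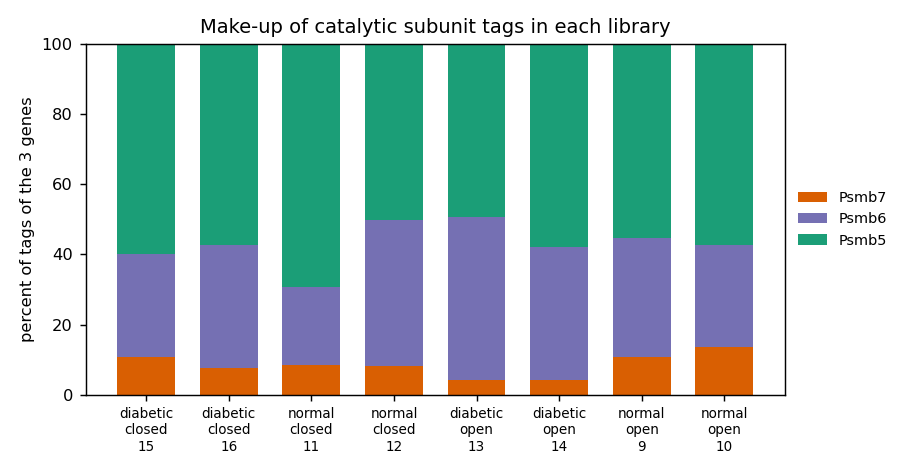
Make-up of the tags of the catalytic subunit genes Psmb7, Psmb6 and Psmb5 in each of the 8 libraries (percent of their summed tags). The Psmb7 part was 4.12% and 4.19% in diabetic open libraries and 7.64% to 13.5% in the other 6.

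Psmb10, the immunoproteasome counterpart of Psmb7, was at 17.1 and 7.53 CPM in diabetic closed, 15.3 and 4.44 CPM in normal closed, 6.30 and 5.13 CPM in diabetic open and 2.17 and 2.47 CPM in normal open libraries. The libraries of a closed group differed more than 2-fold from each other. Its log2 fold change for closed over open tissue was 1.63 (SE 0.86, edgeR adjusted p = 1.00), and normal closed library 12 fell inside the range of the open libraries.

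The second question was whether the closed neural tube behind closure site 1 differed from the open tube ahead of it, tissue of another axial level. The core sum averaged 7772 ± 746 CPM over closed and 7712 ± 467 CPM over open libraries, and the regulatory sum 2228 ± 213 against 2281 ± 209 CPM, closed against open (SD, n = 4 each). As single libraries were left out, the core difference of 60.3 CPM ran from -214 CPM without diabetic closed library 16 to 357 CPM without normal closed library 11. No proteasome gene was called by edgeR, by DESeq2 or by limma-voom (0 of 44), and the share of all genes called was 0%, 0.0764% and 0%. At an unadjusted edgeR p below 0.05 no gene was higher and 2 were lower, beside 2.31% higher and 1.01% lower among all genes. A positive fold change was found in 23 of 44 (52.3%) and in 55.5% of all genes, with medians on the log2 scale of 0.01 and 0.07.

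The 2 lower genes were an alpha ring subunit and an ATPase. Psma2 was at 210.4 and 196 CPM in diabetic closed, 205 and 142 CPM in normal closed, 243 and 301 CPM in diabetic open and 231 and 311 CPM in normal open libraries. Every closed library was below every open one, with a log2 fold change of -0.49 (SE 0.20, edgeR adjusted p = 1.00), and the tag is shared with Snhg15. Copies of the tag with changed bases, or outside annotated transcripts, were not searched for. Psmc1 was at 132 and 137 CPM in diabetic closed, 126 and 132 CPM in normal closed, 219 and 211 CPM in diabetic open and 147 and 168 CPM in normal open libraries, again without overlap (log2 fold change -0.44, SE 0.18, edgeR adjusted p = 1.00). No full tag was predicted for Psmc1, so which site its counts come from is uncertain. Genes that were lower in all closed libraries made up 1.07% of all genes tested.

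Psmc6, another ATPase, was higher in every closed library, where it stood at 26.1 to 29.4 CPM, than in any open one, where it stood at 7.94 to 24.6 CPM, as were 1.68% of all genes. Its log2 fold change was 0.57 (SE 0.44, edgeR adjusted p = 1.00), and it was 0.29 without normal open library 10, the lowest of the 8. Within the ATPase set the order of Psmc1 and Psmc6 was thus opposite, and 2 of the 6 ATPases had a positive fold change for closed over open tissue.

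**Figure D5:**
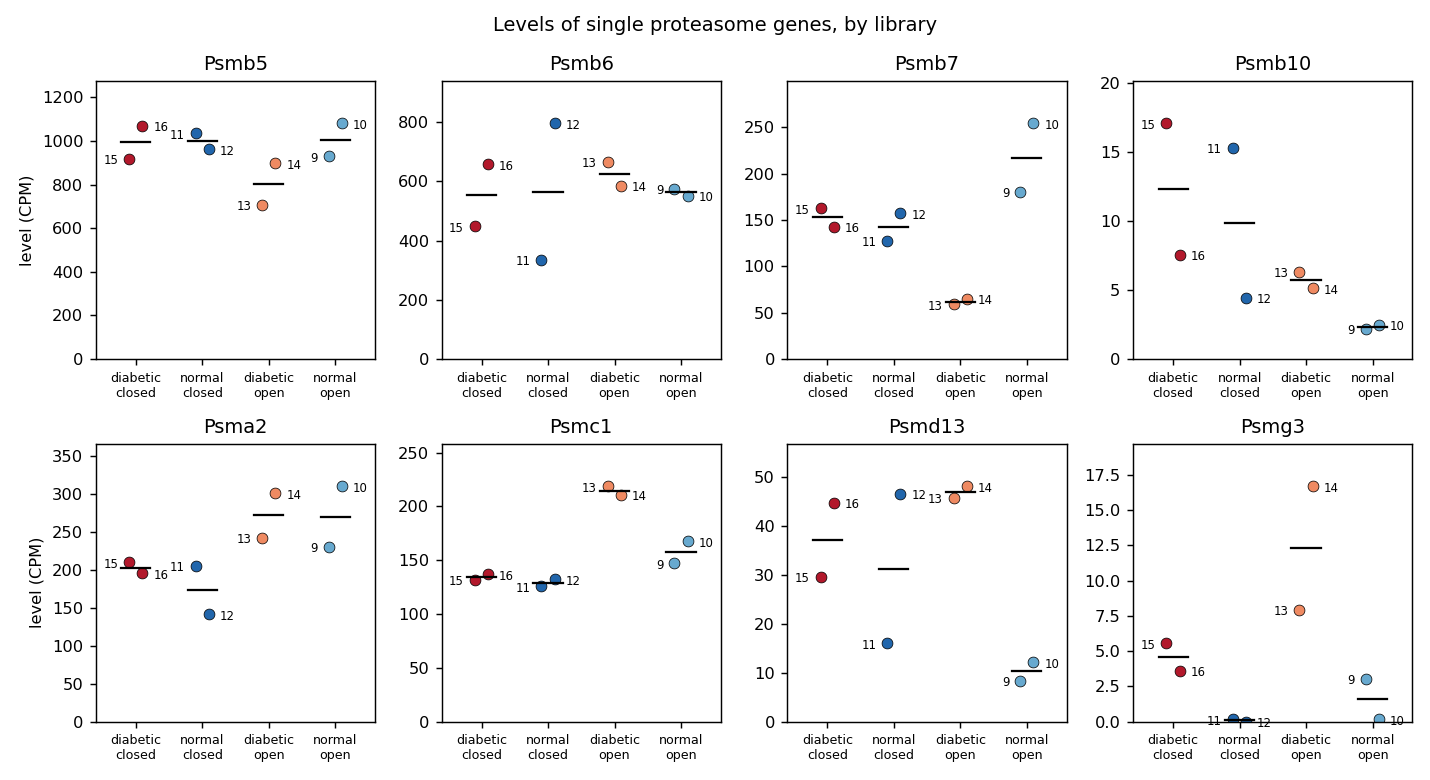
Level of 8 proteasome genes (CPM, axes from 0) in the 8 libraries, with a bar at the mean of the 2 libraries of a group and library numbers beside the points. Psmb7 had its lowest values, 59.0 and 64.8 CPM, in diabetic open tissue, and Psma2 and Psmc1 were lower in all 4 closed libraries than in any open one.

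Within single regions or dams, with 2 libraries against 2, edgeR called 0 of the 44 proteasome genes and 0% of all genes in each of the 4 comparisons, and likewise for the interaction. In open tissue, diabetic against normal dams, DESeq2 called Psmb7, limma-voom called 0 (0.00849% of all genes), and at an unadjusted edgeR p below 0.05 there were 2 higher and 1 lower (3.96% and 3.26% of all genes). In closed tissue DESeq2 and limma-voom called 0 (0.017% and 0% of all genes), with 1 higher and 0 lower at the unadjusted threshold (0.908% and 0.263%). The share with a positive fold change was 63.6% in open and 68.2% in closed tissue, beside 51.1% and 51.7% of all genes, and the medians were 0.10 and 0.11 on the log2 scale.

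For closed against open tissue within diabetic dams DESeq2 called Psmb7, limma-voom called 0 (0.00849% of all genes), and 1 gene was higher and 1 lower at an unadjusted edgeR p below 0.05 (2.28% and 0.501% of all genes). Within normal dams DESeq2 and limma-voom called 0 (0.28% and 0% of all genes), with 2 higher and 1 lower at the unadjusted threshold (2.31% and 1.09%). A positive fold change was found in 52.3% of the proteasome genes within diabetic and 45.5% within normal dams, beside 52.3% and 52.2% of all genes. The interaction was called for 0 by DESeq2 and by limma-voom (0.187% and 0.00849% of all genes). At an unadjusted edgeR p below 0.05 its value was positive for 1 gene and negative for 2 (2.01% and 1.72% of all genes), and 50% of the proteasome genes had a positive value, beside 50.7% of all genes.

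The libraries of diabetic and normal dams did not overlap in open tissue for 13 higher and 5 lower proteasome genes of 44 (29.5% and 11.4%), beside 17.4% and 15.1% of all genes. In closed tissue the counts were 13 higher and 1 lower (29.5% and 2.27%), beside 18.7% and 12.5%. Those comparisons use different libraries. Psma4, Psma6, Psmd8 and Psmg3 (4 of 44, 9.09%) were higher without overlap in both, beside 4.46% of all genes, and 0 were lower in both, beside 2.49%. The difference between these shares was not tested. Closed and open libraries did not overlap for 6 higher and 10 lower genes within diabetic dams (beside 18.5% and 15.3% of all genes), and for 3 higher and 8 lower within normal dams (beside 14.9% and 13.6%).

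Other genes that work with the proteasome were read from lists. Of 8 tested partners (assembly factors, associated deubiquitinases and receptors), 0 were called by edgeR or DESeq2 in any comparison, and 3 (37.5%) had a positive fold change for dam, beside 52.7% of all genes. For these lists the background of calls is that given above, 0% of all genes by edgeR in each comparison and 0.017% to 1.69% by DESeq2. Pomp, the maturation factor of the core, was the most abundant at 706 to 1052 CPM, and Shfm1, a small lid subunit, followed at 296 to 462 CPM. Of 13 tested genes for ubiquitin, its activating enzymes and shuttle factors, 0 were called by edgeR, with Vcp, the segregase that hands substrates to the proteasome, at 1508 to 2201 CPM.

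Ubqln4, a shuttle factor that carries ubiquitinated proteins to the proteasome, was the 1 gene of these lists that DESeq2 called, in 2 comparisons in which it called 1.69% and 0.399% of all genes. It was at 70.6 and 127 CPM in diabetic closed, 81.9 and 136 CPM in normal closed, 7.39 and 19.7 CPM in diabetic open and 125 and 81.5 CPM in normal open libraries. Both diabetic open libraries were below all others, as for Psmb7, and the blood and endothelial markers given there were highest in them too, whose part was not tested. The log2 fold change in open tissue for diabetic over normal dams was -2.96 (SE 0.57, edgeR adjusted p = 0.323, DESeq2 adjusted p = 0.00027), and for closed over open tissue within diabetic dams 2.91 (SE 0.57, edgeR adjusted p = 0.430, DESeq2 adjusted p = 0.000615).

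Nfe2l1, the factor that raises proteasome genes when the complex is inhibited, was at 78.2 to 121 CPM, and Mafk, a partner protein of its family, at 12.4 to 32.8 CPM. None of 6 tested genes of that axis was called by edgeR or DESeq2. Genes of antigen presentation and interferon response, which in other tissues go with the immunoproteasome, summed to 11.5 to 47.4 CPM. Of the 6 tested, 0 were called by edgeR or DESeq2, with H2-K1 at 0 to 17.9 CPM, Tapbp at 0.176 to 19.99 CPM and Tap2 at 0 in every library.

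Promoters of the members were compared for short motifs, in RefSeq windows of build GRCm38.p6 that run from 250 bases before to 50 after a gene's start, taking the first window of a gene with several. A window was found for 40 of the 48 genes. The letters CCGGAAG, the core of sites for ETS factors, occurred on either strand in 13 of the 40 (32.5%), against 18.3% of 8076 windows of tested genes and 9.12% of all 27025. All 13 were Psmc, Psmd, Psme or Psmg genes, and none was a Psma or Psmb gene. Windows of both families, such as those of Psma1 and Psmb5, were among the 40. Their number was not counted, so the lack of a match in them cannot be set against the 18.3%. This split by family was not planned. Neither it nor the difference between the shares was tested. Around the match, read on the strand that carries it, 3 members whose values are given above read as follows, with the motif in capitals.
Psmc1: atcgccaccgCCGGAAGtgcatccacc
Psmd13: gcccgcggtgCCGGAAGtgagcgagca
Psmg3: cggacaggaaCCGGAAGttctcgccgg

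The letters TGACNNNGC, the core of the antioxidant response element, occurred in 15% of the member windows and 14.8% of the windows of tested genes. CCAAT occurred in 35% and 39.2%, and TATAAA in 10% and 6.33%. A match of letters describes the window and was not tested for binding.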

How the data were processed

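The authors deposited 1 table of unscaled tag counts per library, with 1 row per gene symbol, from barcoded SOLiD SAGE libraries of 7 ng total RNA, per the labels' protocols. Per the submitters' processing notes, mm9 was the build. Aligner, counting rules and the handling of tags that match several genes are not stated in the labels. Levels are counts scaled to a library total of 1000000 (CPM). Counts were tested in R 4.3.3 with edgeR 4.0.16 (quasi-likelihood F test, TMM, genes kept at a minimum count of 10 and a minimum total of 15, which left 11779 genes). P-values were adjusted by Benjamini-Hochberg over all of them, with a threshold of 0.05. Dam and region were tested in an additive model of all 8 libraries, and single differences and the interaction as contrasts of the 4 groups, which share 1 estimate of spread. The alternatives were DESeq2 1.42.0, limma-voom (limma 3.58.1), library totals in place of TMM, no filter on low counts, and each library left out.

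Of the members 44 passed the filter. Psma8, Psmb3, Psmb8 and Psmb9 did not and have no test. The labels do not say whether libraries came from separate embryos or litters, so p-values measure the spread between these libraries. Within the diabetic pairs that spread may be technical. Within each normal pair the libraries had opposite levels of Xist and Ddx3y, so they came from different embryos, and their spread includes a difference in sex. No 2 libraries agreed within sampling noise. The members and the lists of other genes were chosen with earlier results of these data known. The text names the catalytic, tissue-restricted and activator genes, the members with the extreme fold changes of each set, the most and the least variable members, and the most and least abundant ones. Psma1, Psma2, Psma6, Psmb1, Psmb3, Psmc1, Psmd8, Psmd12 and Psmd14 fall outside that rule, as does the Psma sum: these were picked with their values known. The library CPM behind a set sum carries no scaling for composition, and the planned protein sequences were not used here. A tag sequence and the level of 1 listed gene are not reported here.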

Additional observations from a re-analysis of the deposited data

Results flagged for a closer look

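In 136 groups of 4 libraries (diabetic, normal, closed or open), each screened for 1 library far from the other 3, 12 were singled out. The rule singles out about 1 in 20 groups of independent values with bell-shaped scatter. That rate cannot be set against the 12. The genes screened were partly picked for high variation or extreme fold changes in these libraries, and the groups share libraries. A gene with all its counts in 1 library is always singled out. Diabetic open library 14 was the library in question 4 times. In it Psmd1, a large scaffold subunit of the base, stood at 129 CPM, against 74.7 to 81.3 CPM in the other diabetic libraries. Psme1, a subunit of the PA28 cap, stood at 34.0 CPM, against 84.97 to 89.9 CPM in the other diabetic libraries. Psmc3 stood at 343 CPM, against 446 to 466 CPM in the other open libraries, and the summed activator set at 652 CPM, against 691 to 698 CPM.

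Normal open library 10 was singled out 3 times. Psme1 was at 27.2 CPM there, against 76.6 to 79.2 CPM in the other normal libraries, so that the 2 lowest Psme1 levels were both in open tissue. Psme1 was not low in open libraries 9 and 13, and its tag is shared with Gm7776. In library 10, Psmc4 was at 10.4 CPM, against 2.37 to 3.65 CPM in the other normal libraries. Psmc5 was at 603 CPM there, against 714 to 730.5 CPM in the other open libraries.

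The remaining libraries concerned mostly genes of few tags. Psma8, the testis form of an alpha subunit, stood at 1.68 CPM in diabetic open library 13 and at 0 in every other library, which singled it out among both diabetic and open libraries. Psmf1 stood at 12.1 CPM in normal closed library 11 and at 0 in the other 3 normal libraries. Psmg3 stood at 3.06 CPM in normal open library 9, against at most 0.178 CPM in the other normal libraries. Psme4 stood at 157 CPM in diabetic closed library 16, against 189 to 195 CPM in the other diabetic libraries.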

How the results depend on the processing

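The number of proteasome genes called in open tissue for diabetic against normal dams was 0 with edgeR and 1, Psmb7, with DESeq2 and with no filter on low counts. It ran from 0 to 1 as single libraries were left out, with 1 without normal open library 9, without diabetic closed library 15 and without diabetic closed library 16; the cause was not tested. For closed against open tissue of diabetic dams it was 0 with edgeR and 1, Psmb7, with DESeq2. In the other 5 comparisons it was 0 under every alternative. The median log2 fold change of the members for diabetic against normal dams in open tissue (0.10) ran from 0.041 to 0.27 as libraries were left out, and in closed tissue (0.11) from 0.094 to 0.37. For closed over open neural tube of normal dams (-0.02) it ran from -0.23 to 0.0028, and for the interaction (0.00) from -0.10 to 0.15. Leaving out the 2 libraries with Xist, an alternative chosen after the data were seen, gave 0.37 in closed tissue for dam, -0.20 for closed over open neural tube of normal dams and 0.21 for the interaction. For diabetic minus normal dams the set sums ran from 226.7 to 639 CPM in the core, -17.7 to 146 in the ATPase, 180 to 316 in the regulatory and -46.1 to 32.3 in the activator set as libraries were left out. For closed minus open tissue they ran from -214 to 357, -154 to 10.5, -119 to 40.4 and -46.2 to 32.3 CPM, so each of these 4 changed sign. The interaction of Psmf1 was -8.50 on the log2 scale and ran from -9.52 without normal closed library 12 to 0.17 without normal closed library 11, the 1 normal library that held it. Of 262 values of counts, medians and set sums under alternatives, 249 stayed within the spread or the 1.5-fold range. Of 233 values of single genes, 226 kept their direction and their side of the threshold, 6, all of Psmb7, passed it under the alternative, and 1 reversed.

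No paired analysis was made. No library number occurs in more than 1 group, and the labels do not say whether closed and open tissue came from the same embryos or litters. Any such pairing is unknown and is not in the models. The standard error of the log2 fold change had a median of 0.28 over the 44 members for dam and of 0.37 for dam in open tissue, and genes with few tags, such as Psmf1 and Psmg3, carry standard errors above 1. The smallest detectable difference was not computed.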
